A study of Mus musculus with 18 samples.

Results

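The 10 receptors and ligands described here, through which macrophages take up modified lipoproteins, microbes and dying cells, were followed across resting, LPS-treated and IL-4-treated bone marrow-derived macrophages (BMM) with and without the nuclear receptor Nur77. The set was defined by gene symbol: the scavenger receptors Msr1, Marco, Cd163 and Stab1, the apoptotic-cell receptors Mertk and Axl, the bridging proteins Gas6 and Mfge8, the lipid-sensing receptor Trem2 and the LPS co-receptor Cd14. These are 10 of the 12417 genes tested. All 10 had a probe that passed the filter of detection on at least 1 array, and a gene with several probes is represented by its brightest one.

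RNA was hybridized to Illumina MouseWG-6 v2 bead arrays, and the 18 arrays form 6 groups of 3. WT BMM and Nur77-KO BMM, both on the C57BL/6 background, were grown from bone marrow for 8 days in medium conditioned by L929 cells, a source of M-CSF. They were left without a stimulus, given LPS at 100 ng/ml for 8 h, or given IL-4 at 50 ng/ml for 8 h. The Nur77-KO mice lack the gene Nr4a1 in all cells. The unstimulated arrays are labelled 0 h, so a response to a stimulus also contains any change over 8 h in culture, whereas LPS and IL-4 can be compared at the same time. Bone marrow came in batches from 3 mice of each genotype, but the sources do not say which mouse stands behind which array, and p-values therefore measure only the spread between these arrays, which may be technical. In bulk RNA, fewer cells of a type and less RNA per cell cannot be told apart.

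Macrophages clear dying cells by efferocytosis. Phosphatidylserine exposed on the dying cell is bound by soluble bridging proteins, of which Gas6 links it to the TAM receptor kinases Axl and Mertk and Mfge8 links it to αv integrins, while Stab1 binds it directly. Scavenger receptors of class A (Msr1, Marco) bind polyanionic ligands such as modified low-density lipoprotein and bacterial surfaces, and Cd163 takes up haemoglobin bound to haptoglobin. Trem2 senses lipids and lipoproteins and signals through the adaptor DAP12, and Cd14 passes LPS to the TLR4 receptor complex and also tethers apoptotic cells.

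The probe for Nr4a1 itself was detected on 0 of 18 arrays, so the knockout could not be checked at the transcript. The labelled cell type was borne out by its markers: 10 of 10 tested macrophage markers were detected on every array. A set of 4 stimulated arrays stood apart from their groups: WT LPS replicate 3, WT IL-4 replicate 1, Nur77-KO LPS replicate 1 and Nur77-KO IL-4 replicate 1. Across all tested genes these correlated with their group at r = 0.960 to 0.969, against 0.980 to 0.995 for the other pairs within a group. The summed level of 9 tested stromal markers was 365 to 1503 on these 4 arrays, 1564 to 3552 on the other WT arrays and 5480 to 6993 on the other Nur77-KO arrays. For 10 tested neutrophil markers the summed level was 4166 to 12902 on the 4 arrays, 895 to 1345 in unstimulated WT BMM, 7714 to 7772 and 1296 to 1377 on the other WT LPS and WT IL-4 arrays, and 3910 to 5645 on the other Nur77-KO arrays. The neutrophil sums with LPS include Lcn2, whose mean log2 level went from 4.91 without a stimulus to 12.55 with LPS in WT BMM. In Nur77-KO BMM it went from 6.47 to 11.52. Of 3 tested Y-linked genes, 3 were detected on each unstimulated Nur77-KO array and 1 or 2 on Nur77-KO LPS and IL-4 replicates 2 and 3. None was detected on the 4 arrays, and at most 1 on any unstimulated WT array and 0 on the other stimulated WT arrays. In the unstimulated arrays, and in every state once the 4 arrays are left out, the genotype and the Y-linked signal cannot be told apart. Results are given over all 18 arrays and, for the members where stated, also without the 4 arrays. Leaving these out was decided once the values were known, and the part of the marker levels in the results was not tested.

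Promoters are shown for Marco, which had the largest rise with LPS, and for Gas6 and Trem2, whose falls with LPS were called in every alternative that was run. Each run is the 250 bases before the start site, 5′ to 3′, from RefSeq (GRCm38.p6), with every match to a searched motif in capitals. The Marco promoter lies at chr1:120505025-120505274 on the minus strand, Gas6 at chr8:13494536-13494785 on the minus strand and Trem2 at chr17:48346151-48346400 on the plus strand.
Marco: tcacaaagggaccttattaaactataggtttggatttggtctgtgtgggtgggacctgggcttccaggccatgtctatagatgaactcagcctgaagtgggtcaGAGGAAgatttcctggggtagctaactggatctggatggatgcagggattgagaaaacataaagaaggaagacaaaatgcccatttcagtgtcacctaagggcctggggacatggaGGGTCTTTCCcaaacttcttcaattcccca
Gas6: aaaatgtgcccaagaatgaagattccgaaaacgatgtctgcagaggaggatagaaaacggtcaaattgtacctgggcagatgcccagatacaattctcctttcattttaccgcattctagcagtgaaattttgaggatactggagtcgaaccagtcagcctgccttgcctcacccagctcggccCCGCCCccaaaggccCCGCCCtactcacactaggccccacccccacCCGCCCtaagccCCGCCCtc
Trem2: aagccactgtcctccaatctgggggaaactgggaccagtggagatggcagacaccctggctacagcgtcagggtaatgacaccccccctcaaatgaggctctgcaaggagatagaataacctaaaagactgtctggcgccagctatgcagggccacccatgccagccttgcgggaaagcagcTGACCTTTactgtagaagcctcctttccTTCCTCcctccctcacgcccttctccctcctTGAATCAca
The motifs, searched on both strands, were NF-kB (GGG, any 2 bases, then TTTCC), AP-1 (TGANTCA), ISRE (GAAA on each side of any 2 bases), STAT6 (TTC, any 4 bases, then GAA), PU.1 (GAGGAA), the GC box (GGGCGG) and NBRE (AAAGGTCA), the element to which Nur77 binds as a monomer. No capitals in these 3 runs belong to overlapping matches. In Marco an NF-kB match lies 30 to 21 bases before the start, a motif held by 1.41% of 32851 windows of 250 bases in the same table, and a PU.1 match lies 146 to 141 bases before it. Trem2 holds an NBRE match on the minus strand at 68 to 61 bases (1.34% of windows), a PU.1 match at 40 to 35 and an AP-1 match at 9 to 3 bases (6.75% of windows). Gas6 holds 4 GC boxes, at 66 to 3 bases, and none of the other motifs. Of the 8 genes with an entry in the table, 5 had a PU.1 match (23.3% of all windows), 4 a GC box (32.7%), and 0 an ISRE (2.98%) or STAT6 match (5.85%). A match describes the letters only, and no binding was measured here.

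Msr1 (chr8:39543232-39642750), the class A scavenger receptor for modified lipoproteins, was higher after LPS on every array of both genotypes. The log2 intensity was 7.36, 7.41 and 7.22 in unstimulated WT BMM and 9.43, 9.47 and 9.28 with LPS, and 7.10, 6.82 and 7.11 against 9.47, 9.41 and 9.32 in Nur77-KO BMM. The LPS arrays of either genotype lay within 9.28 to 9.47, far above all others. The rise was 4.18-fold in WT BMM (a log2 difference of 2.06, SE 0.19, limma, adjusted p = 3.18e-07) and 5.26-fold in Nur77-KO BMM (2.39, SE 0.19, adjusted p = 6.32e-08). With IL-4 the values were 7.51, 6.62 and 6.67 in WT BMM and 6.83, 6.53 and 6.70 in Nur77-KO BMM, and neither difference from unstimulated cells was called. WT IL-4 replicate 1, which stands apart, was the highest of its group, and without the 4 arrays Msr1 fell by 0.69 on the log2 scale with IL-4 in WT BMM (adjusted p = 0.00249). The second Msr1 probe was detected on 0 arrays and was not used.

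Marco (chr1:120474538-120505024), a class A receptor for bacteria and particles, had the largest change of the set. It was close to the detection limit in unstimulated cells, at 6.19, 4.80 and 6.00 in WT BMM and 5.87, 5.83 and 6.21 in Nur77-KO BMM, and WT replicate 2 was not detected. With LPS it stood at 11.57, 11.37 and 12.40 in WT BMM and 11.79, 10.60 and 10.46 in Nur77-KO BMM. All LPS arrays thus lay above all others, with a 69.4-fold rise in WT BMM (a log2 difference of 6.12, SE 0.81, limma, adjusted p = 1.33e-05) and a 31.6-fold rise in Nur77-KO BMM (4.98, SE 0.81, adjusted p = 0.00012). With the baseline near the detection limit, the size of the fold depends on the processing: over the alternatives the log2 difference ran from 4.18 (no background correction) to 7.52 (slide as a fixed block) in WT BMM, was 5.68 without the undetected array, and ran from 3.30 to 5.41 in Nur77-KO BMM, called each time. The difference between these responses, -1.14 (95% interval -3.57 to 1.30), was not called. With IL-4 the arrays of a group diverged: 8.77, 6.53 and 5.87 in WT BMM, and 8.71, 5.28 and 5.38 in Nur77-KO BMM, where replicates 2 and 3 were not detected. The high array of each IL-4 group is the one that stands apart, and no IL-4 response was called with or without it.

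Cd163 (chr6:124304636-124330529), the haemoglobin-haptoglobin receptor, was hardly measurable. It was detected on 3 of 18 arrays, namely WT IL-4 replicate 1 at 6.68, Nur77-KO IL-4 replicate 1 at 6.27 and unstimulated Nur77-KO replicate 1 at 5.51. On the other 15 arrays it lay between 4.54 and 5.38, not above background, and its second probe was detected on 0 arrays. No fold change is given for it, and no comparison called it at an adjusted p under 0.05 in the fit of all 18 arrays. In Nur77-KO BMM, LPS against IL-4 was called for Cd163 in 8 of 33 settings, with no LPS array above background.

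Stab1 (chr14:31139017-31168651), the multi-domain receptor for phosphatidylserine and modified lipoproteins, fell with each stimulus. It was 12.54, 12.55 and 12.66 in unstimulated WT BMM, 11.10, 11.01 and 11.76 with LPS, and 11.29, 10.91 and 10.96 with IL-4. In Nur77-KO BMM it was 12.39, 12.40 and 12.35 without a stimulus, 11.67, 10.52 and 10.40 with LPS, and 11.45, 10.51 and 10.57 with IL-4. Every stimulated array lay below every unstimulated one, and in each stimulated group the array that stands apart was the highest. The log2 fold change with LPS was -1.29 in WT BMM (SE 0.31, limma, adjusted p = 0.00269) and -1.52 in Nur77-KO BMM (adjusted p = 0.000828). With IL-4 the values were -1.53 (adjusted p = 0.00534) and -1.54 (adjusted p = 0.00587). The LPS fall in WT BMM was not called under median normalization (-1.15, adjusted p = 0.0701) or with slide as a fixed block (-0.76, adjusted p = 0.135), and the IL-4 fall there not under median normalization (-1.66, adjusted p = 0.114). Its 3 probes, all detected on 18 arrays, shared the fall with LPS but not the contrast of the stimuli: LPS against IL-4 was 0.24 in WT BMM and 0.02 in Nur77-KO BMM on the brightest probe, -1.44 and -1.31 on the second, and -0.31 and -0.67 on the third. On the second probe the IL-4 response was smaller, at -0.73 (adjusted p = 0.147) and -0.30 (adjusted p = 0.736). Whether IL-4 lowered Stab1 as far as LPS did therefore depends on the probe.

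**Figure D1:**
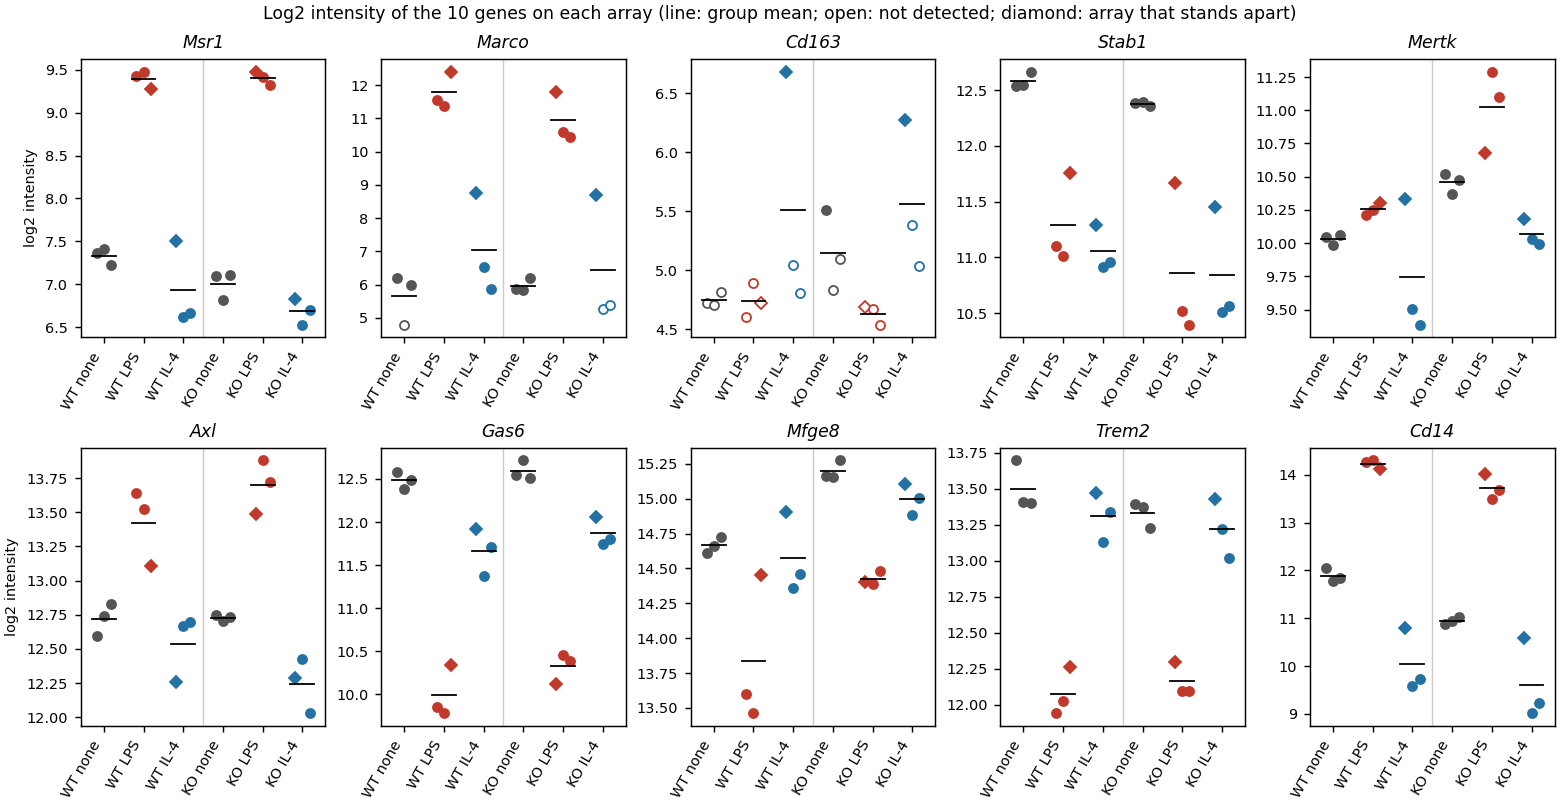
Log2 intensity (y axis) of each of the 10 genes on the 18 arrays, by group (x axis; KO, Nur77-KO); points are arrays, lines are group means (n = 3), open points were not detected and diamonds mark the 4 arrays that stand apart. Msr1, Marco and Cd14 are highest with LPS, Gas6 and Trem2 lowest with LPS, and Stab1 is lower with either stimulus.

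Axl (chr7:25756500-25788924), the TAM kinase usually linked to inflammatory states, rose with LPS. It was 12.59, 12.74 and 12.83 in unstimulated WT BMM and 13.64, 13.52 and 13.10 with LPS, and 12.75, 12.70 and 12.73 against 13.49, 13.88 and 13.72 in Nur77-KO BMM. The groups did not overlap, and the rise was 1.63-fold in WT BMM (a log2 difference of 0.70, SE 0.17, limma, adjusted p = 0.00375) and 1.96-fold in Nur77-KO BMM (0.97, SE 0.17, adjusted p = 0.000287). Under median normalization neither was called (1.01, adjusted p = 0.173, and 0.76, adjusted p = 0.241), and with slide as a fixed block the WT rise was not (0.54, adjusted p = 0.0514). With IL-4 Axl was 12.26, 12.67 and 12.69 in WT BMM and 12.29, 12.42 and 12.03 in Nur77-KO BMM, a difference of -0.18 and -0.48 from unstimulated cells, neither called. Without the 4 arrays the second was called (-0.50, adjusted p = 0.0282). At the unadjusted level LPS against IL-4 differed between the genotypes for Axl, 0.88 in WT BMM and 1.45 in Nur77-KO BMM (difference 0.57, SE 0.24, limma, unadjusted p = 0.0344, adjusted p = 0.999). Its second probe is dim, detected on 4 arrays, and had no called change with LPS.

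Mertk (chr2:128698915-128803162), the TAM kinase of resting, tolerant macrophages, moved little with either stimulus in WT BMM. It was 10.04, 9.99 and 10.06 without a stimulus, 10.21, 10.25 and 10.30 with LPS, and 10.33, 9.50 and 9.39 with IL-4. In Nur77-KO BMM it was 10.52, 10.37 and 10.48 without a stimulus, 10.68, 11.29 and 11.10 with LPS, and 10.18, 10.03 and 10.00 with IL-4. The LPS arrays lay above the unstimulated ones in each genotype, by 0.22 in WT BMM (SE 0.21, limma, adjusted p = 0.432) and by 0.57 in Nur77-KO BMM (SE 0.21, adjusted p = 0.0407). The second value passed narrowly: it was called in 20 of 33 settings, and only some of the losses are named here. It was lost when any 1 of 8 arrays was left out (unstimulated WT replicate 1 or 3, WT LPS replicate 1, any unstimulated Nur77-KO array, Nur77-KO LPS replicate 2 or 3; adjusted p = 0.0501 to 0.161) and under median normalization (0.09, adjusted p = 0.903). LPS against IL-4 was called in Nur77-KO BMM (0.95, SE 0.21, adjusted p = 0.00153) and not in WT BMM (0.51, adjusted p = 0.0623), and the difference between the genotypes, 0.44 (95% interval -0.18 to 1.06), was not called. Without the 4 arrays the IL-4 response of Mertk was -0.58 in WT BMM (adjusted p = 0.00287) and -0.44 in Nur77-KO BMM (adjusted p = 0.0184).

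Gas6 (chr8:13465374-13494535), the ligand that joins phosphatidylserine to Axl and Mertk, showed the reverse of its receptor Axl with LPS. It was 12.58, 12.39 and 12.49 in unstimulated WT BMM, 9.86, 9.78 and 10.34 with LPS, and 11.91, 11.38 and 11.71 with IL-4. In Nur77-KO BMM it was 12.54, 12.72 and 12.51 without a stimulus, 10.12, 10.46 and 10.39 with LPS, and 12.06, 11.74 and 11.81 with IL-4. The 3 states formed separate steps in each genotype, with no overlap between unstimulated, IL-4 and LPS arrays. The fall with LPS was 5.63-fold in WT BMM (a log2 difference of -2.49, SE 0.18, limma, adjusted p = 1.13e-08) and 4.81-fold in Nur77-KO BMM (-2.27, adjusted p = 3.98e-08), and it was called in every alternative that was run. With IL-4 the fall was 1.76-fold in WT BMM (-0.82, adjusted p = 0.00891) and 1.65-fold in Nur77-KO BMM (-0.72, adjusted p = 0.0226). The IL-4 falls were not called under median normalization (-0.94, adjusted p = 0.637, and -1.06, adjusted p = 0.223). The Nur77-KO fall was also lost without any 1 unstimulated Nur77-KO array or without Nur77-KO IL-4 replicate 2 or 3 (adjusted p = 0.0616 to 0.11) and with slide as a fixed block (-0.90, adjusted p = 0.069), and the WT fall when the other groups were left out of the fit (adjusted p = 0.0745).

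Mfge8 (chr7:79133768-79149060), the bridging protein for αv integrins, fell with LPS. It was 14.61, 14.66 and 14.72 in unstimulated WT BMM, 13.60, 13.46 and 14.45 with LPS, and 14.91, 14.36 and 14.46 with IL-4. In Nur77-KO BMM it was 15.16, 15.15 and 15.28, then 14.40, 14.39 and 14.48 with LPS, and 15.10, 14.88 and 15.01 with IL-4. WT LPS replicate 3 lay well above its group mates, whereas the Nur77-KO LPS arrays lay close together, the array that stands apart included. The LPS fall was 1.77-fold in WT BMM (-0.83, SE 0.21, limma, adjusted p = 0.00444) and 1.71-fold in Nur77-KO BMM (-0.77, adjusted p = 0.0076). Cyclic loess normalization ended the call in each genotype (-0.57, adjusted p = 0.161, and -0.45, adjusted p = 0.265), and in WT BMM so did median normalization (-0.59, adjusted p = 0.0738) and slide as a fixed block (-0.55, adjusted p = 0.128). No IL-4 response was called, at -0.09 and -0.20.

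Trem2 (chr17:48346401-48352276) fell with LPS and not detectably with IL-4. It was 13.70, 13.40 and 13.40 in unstimulated WT BMM, 11.94, 12.03 and 12.26 with LPS, and 13.47, 13.13 and 13.34 with IL-4. In Nur77-KO BMM the values were 13.39, 13.38 and 13.23, then 12.30, 12.09 and 12.09 with LPS, and 13.43, 13.22 and 13.02 with IL-4. The LPS arrays lay below all others and the IL-4 arrays overlapped the unstimulated ones. The fall was 2.68-fold in WT BMM (a log2 difference of -1.42, SE 0.15, limma, adjusted p = 1.18e-06) and 2.25-fold in Nur77-KO BMM (-1.17, adjusted p = 1.13e-05). The IL-4 differences were -0.19 (95% interval -0.51 to 0.13) and -0.11 (-0.43 to 0.21).

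Cd14, on chromosome 18, was the only member called in opposite directions by the 2 stimuli. It was 12.05, 11.78 and 11.85 in unstimulated WT BMM, 14.27, 14.31 and 14.13 with LPS, and 10.79, 9.59 and 9.72 with IL-4. In Nur77-KO BMM it was 10.89, 10.94 and 11.02 without a stimulus, 14.03, 13.50 and 13.69 with LPS, and 10.58, 9.01 and 9.22 with IL-4. No array of one state reached into another within a genotype, and the highest IL-4 array of each genotype is the one that stands apart. LPS raised it 5.09-fold in WT BMM (a log2 difference of 2.35, SE 0.34, limma, adjusted p = 3.73e-05) and 6.90-fold in Nur77-KO BMM (2.79, adjusted p = 6.92e-06), and IL-4 lowered it 3.62-fold (-1.86, adjusted p = 0.00296) and 2.54-fold (-1.35, adjusted p = 0.0289). The IL-4 fall in Nur77-KO BMM was lost without any 1 unstimulated Nur77-KO array or without Nur77-KO IL-4 replicate 2 or 3 (adjusted p = 0.0827 to 0.138), with slide as a fixed block (-1.02, adjusted p = 0.173), when the other groups were left out of the fit (adjusted p = 0.106) and under median normalization (-1.73, adjusted p = 0.0554). LPS and IL-4 arrays were 18.4-fold apart in WT BMM and 17.5-fold apart in Nur77-KO BMM.

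Counted over the set, LPS changed 8 of 10 genes in WT BMM, where 39.8% of all tested genes were called. Of these 4 were higher (15.5% of all genes) and 4 lower (24.3%). In Nur77-KO BMM it changed 9 of 10, against 37.8% of all genes, with 5 higher (14.1%) and 4 lower (23.7%). IL-4 changed 3 of 10 in WT BMM (6.76% of all genes called) and 3 of 10 in Nur77-KO BMM (5.55%). In each genotype these were Stab1, Gas6 and Cd14, all lower (3.08% and 2.42% of all genes), and none was higher (3.68% and 3.12%). At the same time point LPS differed from IL-4 for 7 genes in WT BMM (38.4%), 4 higher (15.1%) and 3 lower (23.4%), and for 8 in Nur77-KO BMM (36.8%), 5 higher (13.8%) and 3 lower (23%). Without the 4 arrays LPS changed 8 members in WT BMM (45.8% of all genes) and 10 in Nur77-KO BMM (45%), where the addition was Cd163, not detected with LPS. IL-4 then changed 5 in WT BMM (16.2%) and 5 in Nur77-KO BMM (12.4%), and LPS differed from IL-4 for 8 (43.2%) and 9 (40.4%). The median log2 fold change of the 10 genes with LPS was 0.11 in WT BMM and 0.02 in Nur77-KO BMM, beside medians of -0.06 and -0.08 over all genes, since members rose and fell in like numbers. With IL-4 the medians were -0.24 and -0.35, beside -0.01 and a value within 0.01 of 0. The LPS and IL-4 responses of a genotype share its unstimulated arrays. For the LPS response of the 10 genes, the difference between the genotypes was called by limma for 0 members (0.0161% of all genes), and 0 passed an unadjusted p under 0.05 with a fold of at least 1.4 (4.27%). For the IL-4 response it was called for 0 (0.00805%), again with 0 at the unadjusted threshold (1.9%). For LPS against IL-4 it was called for 0 (0%), and Axl passed the unadjusted threshold (4.5%).

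**Figure D2:**
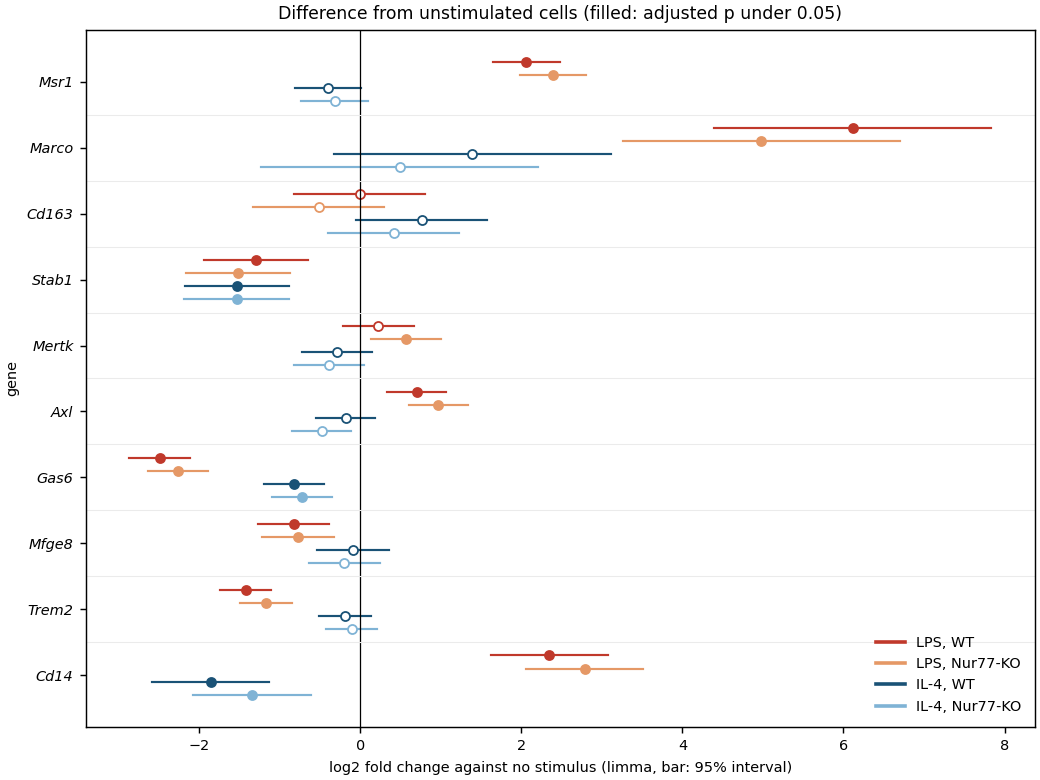
Log2 fold change against unstimulated cells (x axis) for each gene (y axis), with LPS and with IL-4 in WT and Nur77-KO BMM; points are limma estimates, bars 95% intervals, and filled points have an adjusted p under 0.05. Marco reaches 6.12 and 4.98 with LPS, Gas6 -2.49 and -2.27, and the intervals of WT and Nur77-KO BMM overlap for every gene.

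Comparing Nur77-KO with WT BMM within a state, 0 of 10 members were called without a stimulus (0.105% of all genes called), 0 with LPS (0.193%) and 0 with IL-4 (0.0403%). An unadjusted p under 0.05 with a fold of at least 1.4 was met by 2, 2 and 0 members (3.56%, 6.24% and 3.24% of all genes). Mfge8, Mertk and Cd14 had the values farthest from 0 relative to their error. Mfge8 was higher in Nur77-KO BMM by 0.53 without a stimulus (95% interval 0.09 to 0.98, limma, unadjusted p = 0.0221, adjusted p = 0.779), by 0.59 with LPS (0.14 to 1.03, unadjusted p = 0.013, adjusted p = 0.392) and by 0.42 with IL-4 (-0.02 to 0.87, adjusted p = 0.999). Its second probe gave 0.83, 0.87 and 0.80 (adjusted p = 0.418, 0.284 and 0.722 over all detected probes). Mertk differed by 0.43 (-0.01 to 0.86, adjusted p = 0.977), 0.77 (0.33 to 1.21, unadjusted p = 0.00195, adjusted p = 0.215) and 0.33 (-0.11 to 0.77, adjusted p = 0.999). Cd14 was at -0.94 without a stimulus (-1.67 to -0.21, unadjusted p = 0.0146, adjusted p = 0.679), -0.50 with LPS (-1.23 to 0.23) and -0.43 with IL-4 (-1.16 to 0.30). These 3 genes kept the sign of their difference in each state under every scaling that was tried.

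Without a stimulus 7 of the 10 genes did not overlap between the genotypes, where 19% of all tested genes did not. Mfge8 and Mertk lay higher and Msr1, Stab1, Trem2 and Cd14 lower on all 3 Nur77-KO arrays. The other was Cd163, for which the values are mostly background, with detection on 0 of 3 WT and 1 of 3 Nur77-KO arrays. Under median normalization the median over all genes shifted to 0.47 in this comparison, and this turned the values of Msr1, Stab1 and Trem2 to above 0 (0.28, 0.36 and 0.29), still below that shift. With LPS 2 genes, Mertk and Cd14, did not overlap (12% of all genes), and with IL-4 0 genes (7.67%). On the slides that carried both genotypes, 1 array each, the unstimulated difference was 0.53 and 0.42 for Mertk, 0.50 and 0.55 for Mfge8, and -0.89 and -0.83 for Cd14. With LPS a slide with both genotypes gave 0.80 for Mertk, 0.03 for Mfge8 and -0.44 for Cd14, and there the WT array is the one that stands apart. With IL-4 the slides gave 0.61 and 0.68 for Mertk, 0.55 and 0.75 for Mfge8, and -0.50 and 0.99 for Cd14. The second value of each gene comes from the slide whose Nur77-KO array stands apart.

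**Figure D3:**
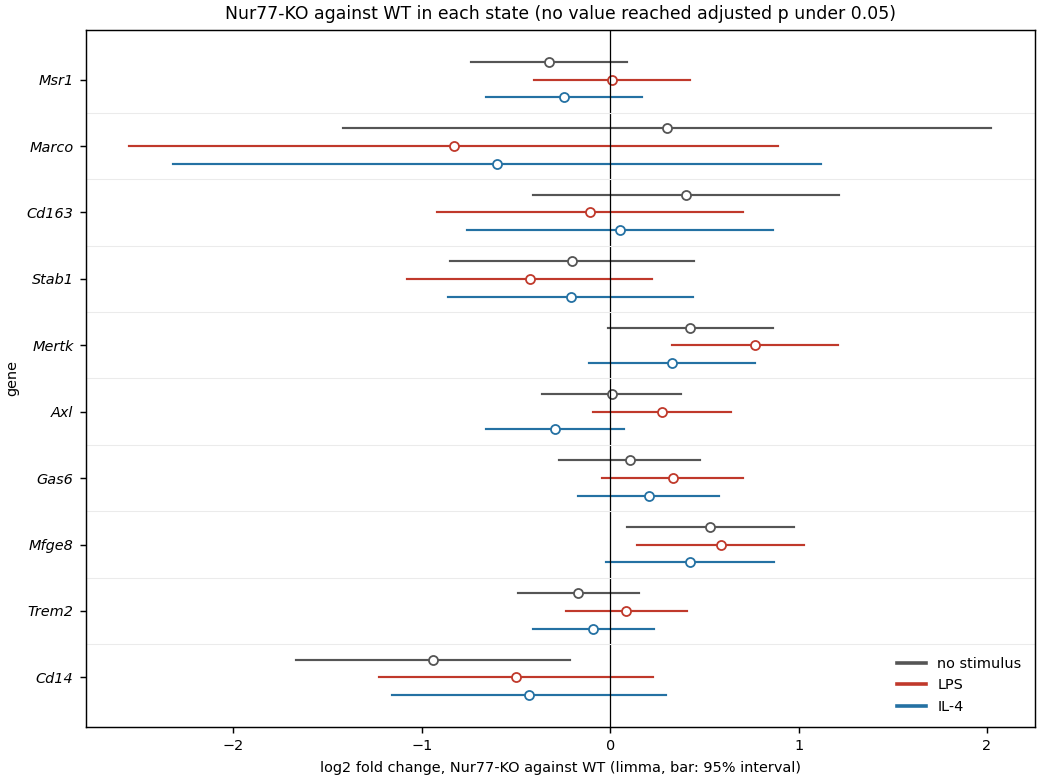
Log2 fold change of Nur77-KO against WT BMM (x axis) for each gene (y axis) without a stimulus, with LPS and with IL-4; points are limma estimates over 18 arrays and bars are 95% intervals. Open points mark an adjusted p of 0.05 or more, which is all 30 values; the intervals of Mfge8 and Cd14 without a stimulus and of Mertk and Mfge8 with LPS leave out 0.

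The genotype comparisons depended on the 4 arrays that stand apart. All groups share the estimate of each gene's spread, and with LPS and IL-4 the differences themselves also moved. Without these arrays 3 members were called in unstimulated cells (3.79% of all genes called), although no unstimulated array was removed: Mertk at 0.43 (SE 0.10, limma, adjusted p = 0.03), Mfge8 at 0.53 (adjusted p = 0.0079) and Cd14 at -0.94 (adjusted p = 0.000468). With LPS 5 were called (5.31%): Mertk at 0.97 (adjusted p = 0.000637), Mfge8 at 0.90 (adjusted p = 0.000969), Gas6 at 0.61 (adjusted p = 0.0256), Stab1 at -0.60 (adjusted p = 0.00892) and Cd14 at -0.70 (adjusted p = 0.0119). With IL-4 2 were called (2.51%), Mertk at 0.57 (adjusted p = 0.0247) and Mfge8 at 0.54 (adjusted p = 0.034). When the 6 unstimulated arrays were fitted by themselves, the test called Cd14 (adjusted p = 0.00937; 2.18% of all genes called) and no other member. The difference of a response between genotypes was called for 0 members without the 4 arrays as well (0.668% of all genes for LPS and 0.0322% for IL-4). The stromal and Y-linked levels given above moved with the genotype in the same arrays, and so did the neutrophil markers in unstimulated cells, with a summed level of 895 to 1345 in WT BMM and 3910 to 5332 in Nur77-KO BMM and 10 of 10 tested markers above 0 in the comparison (median 1.01, 0 called). The part of these levels was not tested, and without the 4 arrays the Y-linked signal goes with the genotype in every state. Mfge8 on Nur77-KO LPS replicate 1, where the stromal and Y-linked levels were low, was 14.40, between the other Nur77-KO LPS arrays, and on Nur77-KO IL-4 replicate 1 it was 15.10, the highest of its group. Mertk on these arrays was 10.68, the lowest of its group, and 10.18, the highest. On the WT arrays that stand apart, LPS replicate 3 and IL-4 replicate 1, Mfge8 was 14.45 and 14.91, each the highest of its group. Mertk there was 10.30 and 10.33, again the highest. Cd14 was 14.13 and 10.79 on these WT arrays and 14.03 and 10.58 on the Nur77-KO arrays that stand apart.

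Within a group, the spread of the members followed the arrays that stand apart. On WT IL-4 replicate 1 and Nur77-KO IL-4 replicate 1, Msr1, Marco, Cd163, Stab1, Mertk, Gas6, Mfge8, Trem2 and Cd14 were each the highest of their 3 arrays. On WT LPS replicate 3, Marco, Stab1, Mertk, Gas6, Mfge8 and Trem2 were the highest and Msr1, Axl and Cd14 the lowest, and on Nur77-KO LPS replicate 1, Msr1, Marco, Cd163, Stab1, Trem2 and Cd14 were the highest and Mertk, Axl and Gas6 the lowest. With group means removed, Marco and Cd14 correlated at r = 0.91 and Gas6 and Mfge8 at r = 0.78 over the 18 arrays, while Axl correlated below 0 with each of the 9 other genes. These values share the 4 arrays and are a description.

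**Figure D4:**
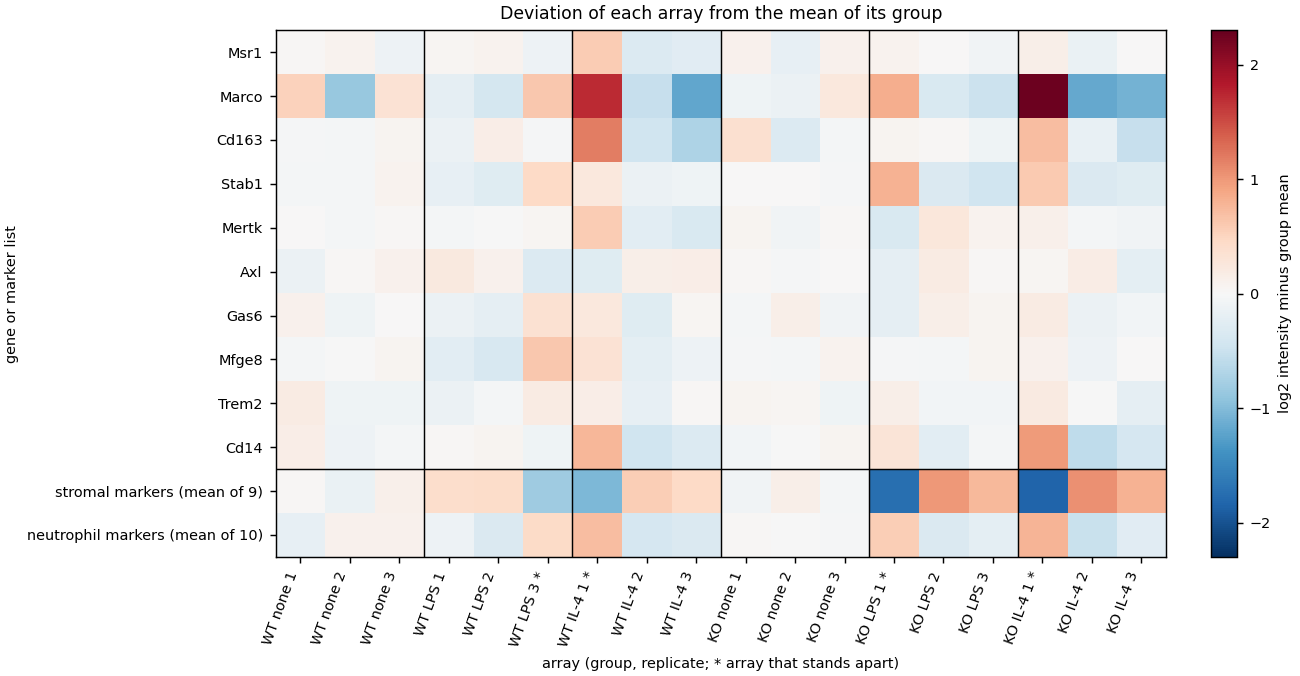
Deviation of each array (x axis; asterisks mark the 4 arrays that stand apart) from the mean of its group, in log2 intensity (colour), for the 10 genes and for the mean of 9 stromal and 10 neutrophil markers (y axis). The marked arrays have the lowest stromal and the highest neutrophil level of their group, and Marco deviates most on the 2 marked IL-4 arrays.

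The order of levels over the 6 groups split the set. Msr1, Marco, Axl and Cd14 had their highest means with LPS in both genotypes, followed by a gap without overlap. For Msr1 the LPS means were 9.40 ± 0.08 (SD, n = 3) without Nur77 and 9.39 ± 0.10 with it, and the arrays overlapped, and the next group was unstimulated WT BMM at 7.33 ± 0.10. For Cd14 the groups stepped down without overlap from WT LPS (14.24 ± 0.09) through Nur77-KO LPS (13.74 ± 0.27), unstimulated WT (11.89 ± 0.14) and unstimulated Nur77-KO BMM (10.95 ± 0.06) to the IL-4 groups, which overlapped each other. For Gas6, Mfge8 and Trem2 the LPS groups came last. The genotypes of Gas6 and Trem2 overlapped within LPS and within IL-4, and the Nur77-KO LPS arrays of Mfge8 overlapped the WT IL-4 arrays. Mertk was highest in Nur77-KO BMM with LPS (11.02 ± 0.31), above unstimulated Nur77-KO BMM (10.46 ± 0.08) and WT BMM with LPS (10.25 ± 0.05), without overlap between these groups. Mfge8 was highest in unstimulated Nur77-KO BMM (15.20 ± 0.07) and next in Nur77-KO BMM with IL-4 (15.00 ± 0.11), without overlap between them. The Nur77-KO IL-4 arrays, down to 14.88, overlapped the WT IL-4 arrays, which reached 14.91.

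Genes whose level tracked a member most closely over the 18 arrays are given as a description, since arrays of a group share their treatment. Msr1 was closest to Clec4e, a receptor for mycobacterial glycolipid (r = 0.992), and to the interferon-induced Mx2 (r = 0.988). Marco was closest to Ifi204, an interferon-induced gene (r = 0.979), and H2-T10 (r = 0.977), and Cd14 to Gas7 (r = 0.989) and Fcgr1, the high-affinity IgG receptor (r = 0.988). Axl tracked Rasgef1b (r = 0.967) and Mtmr14 (r = 0.944), and Mertk tracked Chmp1b (r = 0.929) and Htra1, a secreted serine protease (r = 0.889). Gas6 tracked Smim14 (r = 0.987) and Tmem86a (r = 0.985), and Trem2 tracked Sesn1, a stress-responsive regulator of mTORC1 (r = 0.988), and 6330509M05Rik (r = 0.986). Mfge8 was closest to Hpse, which encodes heparanase (r = 0.956), and Vegfb (r = 0.945), and Stab1 to Sirpb1a (r = 0.922) and Fbxl4 (r = 0.919).

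Among other scavenger receptors, 14 of 20 listed genes were tested, and with LPS 3 were higher and 3 lower in WT BMM (2 and 6 in Nur77-KO BMM), with a median log2 fold change of -0.11 and -0.45. Over all genes 15.5% were higher and 24.3% lower with LPS in WT BMM (14.1% and 23.7% in Nur77-KO BMM), and the counts of this and the next lists are given beside these shares. Values of these lists come from the fit of all 18 arrays only. Scarf1, a scavenger receptor first described on endothelial cells, rose by 3.05 (limma, adjusted p = 1.22e-05) and 3.04. Lrp1, the low-density lipoprotein receptor-related protein, fell (-2.17 and -1.88), and Stab2, the relative of Stab1, also fell (-1.72 in each genotype). With LPS the mean log2 level of Stab2 was 5.12 in WT BMM and 5.36 in Nur77-KO BMM, near the detection limit. The lowest level at which a probe was detected ran from 5.30 to 6.04 over the arrays. The mannose receptor Mrc1 fell with LPS (-1.62 and -1.51) and rose with IL-4 by 1.85 (adjusted p = 0.000277) and 1.83, and it was the only gene of this list called with IL-4.

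Among other apoptotic-cell receptors and bridging proteins, 20 of 22 were tested, with 5 higher and 6 lower after LPS in WT BMM and 4 and 5 in Nur77-KO BMM. The phosphatidylserine- and lipid-binding receptors Cd300lb (-3.29 and -2.92) and Cd300a (-3.23 and -2.87) and the integrin subunit Itgb5 (-1.74 and -1.62) had, with Stab2, which is on both lists, the largest changes of the list. With LPS the mean log2 level of Cd300lb was 4.69 in each genotype, below the detection limit of every array. That of Cd300a was 5.69 and 6.21, near this limit. The size of these falls is therefore not well measured. With IL-4, Cd300lb rose by 1.15 (adjusted p = 0.000121) and 1.35, and Tgm2, a transglutaminase that acts with Mfge8 and αv integrin, rose by 1.27 (adjusted p = 0.0138) and 1.37. Thbs1 and Itgb5 fell with IL-4 in WT BMM (-0.95 and -0.83). In Nur77-KO BMM neither was called, with mean log2 levels going from 6.64 to 5.89 and from 11.84 to 11.24. No gene of this list had a called difference of the IL-4 response between genotypes (0.00805% of all genes called).

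Of 19 tested genes of engulfment signalling and digestion (20 listed), 5 were higher and 8 lower with LPS in each genotype, with medians of -0.40 and -0.55. Xkr8, a scramblase that exposes phosphatidylserine, rose by 4.44 (limma, adjusted p = 4.17e-10) and 4.30, and the GTPase Rac2 rose by 2.13 and 1.61. Arhgef6, an exchange factor for Rac, fell (-3.02 and -2.71). So did Elmo2, which acts with Dock proteins on Rac (-1.60 in WT BMM), and the lysosomal nuclease Dnase2a (-1.88 in Nur77-KO BMM). In the other genotype the mean log2 level also fell, from 7.11 to 5.52 for Elmo2 and from 9.30 to 7.70 for Dnase2a. Of 12 tested genes of the TREM family and DAP12 signalling (14 listed), 4 were higher and 4 lower in WT BMM and 3 and 4 in Nur77-KO BMM. Treml1 fell (-3.40, adjusted p = 4.71e-11, and -3.21), as did Inpp5d, the phosphatase SHIP1 (-2.40 and -2.95). With LPS the mean log2 level of Treml1 was 4.64 in WT BMM and 4.76 in Nur77-KO BMM, below the detection limit of every array. The size of its fall is therefore not well measured. Trem3, another member of the family, rose by 2.37 (adjusted p = 1.7e-05) in WT BMM and also in Nur77-KO BMM (adjusted p = 0.00708), and the kinase Syk rose by 1.91 and 1.85. Unstimulated, Trem3 was below the detection limit at a mean log2 level of 4.87 in WT and 4.96 in Nur77-KO BMM. Syk was near it at 5.83 and 5.75. With IL-4 the lectin Cd33 (-1.34 and -1.43) and Sirpb1a (-1.80 and -1.28) fell. The mean log2 level of Cd33 with IL-4 was 5.36 in WT BMM and 5.95 in Nur77-KO BMM, near the detection limit.

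In the LPS receptor complex and its adaptors, 12 of 13 listed genes were tested, and 6 were higher and 2 lower with LPS in WT BMM (4 and 2 in Nur77-KO BMM), with medians of 0.56 and 0.58. Irak3, a negative regulator of this pathway, rose by 2.77 (limma, adjusted p = 2.81e-07) and 2.58, the adaptors Myd88 and Ticam2 rose by 1.29 and 1.09 in WT BMM, and Irak1 fell (-1.02 and -0.90). At 8 h the log2 fold change of Tlr4 for LPS against IL-4 was -1.48 (adjusted p = 5.02e-07) and -1.26, opposite in sign to that of its co-receptor Cd14. Of 8 tested sheddases and their regulators (9 listed), which release the extracellular part of receptors such as Mertk and Axl, 2 were higher and 3 lower with LPS in WT BMM and 2 and 2 in Nur77-KO BMM. Rhbdf2, which carries the sheddase Adam17 to the surface, rose by 2.17 (adjusted p = 4.11e-07) and 1.87, and Adam8 fell with LPS in each genotype (-1.37 in Nur77-KO BMM). The unstimulated mean log2 level of Rhbdf2, 5.56 in WT BMM and 5.54 in Nur77-KO BMM, was near the detection limit. None of the genes on these 6 lists was called between the genotypes in any state.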

How the data were processed

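The RNA of 18 BMM samples was hybridized to 1 array each (Illumina MouseWG-6 v2). The authors deposited the scanner's probe intensity with a detection p-value per array, both from GenomeStudio 2011.1, and log2 values that they background-corrected and quantile-normalized with limma 3.10.2 in R 2.14.0. The deposited log2 values were used here. Recomputing them from the intensities by neqc gave the same values within 0.0588. Of 45281 probes, 34885 had 1 gene symbol in the platform annotation, 18 had several and 10378 were not named. The 19298 probes whose detection p-value was below 0.05 on 1 array or more were kept, and each of 12417 genes was represented by its probe with the highest mean. The members' 16 probes were treated alike.

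The 6 groups were fitted together with limma 3.58.1 (R 4.3.3; lmFit, contrasts and eBayes, residual df 12, prior df 3.649), and p-values were adjusted by Benjamini-Hochberg over all genes within a comparison. A gene was called at an adjusted p under 0.05. Fits were tested on simulated data. The study's own threshold, an unadjusted p under 0.05 with a fold of at least 1.4, was an alternative. Other alternatives changed the background correction, normalization, filter, probe rule, samples in the fit, slide and replicate blocks and variance prior, or left out arrays. Leaving out the 4 arrays together was chosen after the data were seen. Depth has no counterpart on arrays, and their number limits the precision.

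Members and gene lists were chosen with earlier results of these data known. All 10 members are named. Of each other list, up to 4 called genes per comparison with the largest change are named, and for each member detected on at least 9 arrays the 2 genes with the highest Pearson correlation. Marker lists were stromal, neutrophil, macrophage, Y-linked, dendritic-cell, endothelial, lymphocyte, and mast-cell and eosinophil genes. The summed level of the last 4 lists, in that order, lay between 219 and 429, 291 and 1806, 81.8 and 188, and 116 and 265 over the arrays. Replicate numbers do not pair the samples in the labels.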

Additional observations from a re-analysis of the deposited data

How the results depend on the processing

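The alternatives gave 4128 values of single members, those of their other kept probes included. Of these, 4005 stayed on their side of the threshold, 76 lost the call, 42 gained it and 5 were called with the opposite sign. No value called over all 18 arrays turned sign, but uncalled values near 0 did in places, such as Msr1 and Trem2 between unstimulated genotypes (to 0.28 and 0.29). The 5 concern Stab1 with LPS against IL-4: the mean of its probes gave -0.50 in WT and -0.66 in Nur77-KO BMM, the second probe -1.44 and -1.31, and the third -0.67 in Nur77-KO BMM. Under median normalization the members called were 5 for LPS and 1 for IL-4 in WT BMM, 1 for IL-4 in Nur77-KO BMM, and 4 and 5 for LPS against IL-4 in WT and Nur77-KO BMM, and it moved the median of all genes by 0.47 between unstimulated genotypes and by -0.46 for LPS in Nur77-KO BMM. With slide as a fixed block 5 members were called for LPS in WT BMM and 1 for IL-4 in Nur77-KO BMM. The unadjusted threshold called 2 between unstimulated genotypes, 2 between genotypes with LPS and 1 for the difference of LPS against IL-4. Fitting only the groups compared called 1 between unstimulated genotypes, and leaving out both Nur77-KO arrays that stand apart called 2 with LPS. Without all 4 arrays the counts were 5 for IL-4 in each genotype and 3, 5 and 2 between genotypes without a stimulus, with LPS and with IL-4. The cause of these shifts was not tested.

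Leaving out 1 array at a time gave 8 members for LPS in WT BMM (every time), 8 to 9 in Nur77-KO BMM, 3 to 5 and 1 to 3 for IL-4, 6 to 8 and 7 to 9 for LPS against IL-4, and 0, 0 to 1 and 0 between genotypes without a stimulus, with LPS and with IL-4. IL-4 in WT BMM reached 5 without WT IL-4 replicate 1, which added Msr1 and Mertk. Between genotypes with LPS, Mfge8 was called without WT LPS replicate 3 (0.89, adjusted p = 0.0253), and Mertk without WT IL-4 replicate 1 (0.77, adjusted p = 0.0398) or Nur77-KO LPS replicate 1 (0.94, adjusted p = 0.048). Mfge8 for LPS against IL-4 in Nur77-KO BMM (-0.57, adjusted p = 0.0416) was called in 17 of 33 settings and Mertk for LPS in Nur77-KO BMM in 20 of 33. With group means removed, arrays of the same number in different groups correlated at a mean of 0.0583, against -0.0204 for different numbers. The highest value for the same number, 0.52, was between WT IL-4 replicate 1 and Nur77-KO IL-4 replicate 1, which both stand apart. Of the 18 arrays, 11 correlated best with an array of their own number in another group. With the replicate block the members called were 8, 8, 3, 3, 7, 9, 0, 0 and 0 in the order of the comparisons above.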
